A study of Mus musculus with 8 samples.

Results

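The 9 genes described here are Spry1, Spry2, Spry4, Spred1, Spred2, Spred3, Etv1, Etv4 and Etv5, the Sprouty, Spred and Etv genes that act as feedback and output of growth factor signaling through Ras and Erk. They were taken by symbol, with earlier results of these data known but by no threshold on their values, from the 55487 genes of the table, and all 9 passed the filter on low counts that left 17454 genes for testing. RNA came from muscle stem cells (MuSCs) of 8 mice, 1 library per mouse. In the 4 DEN mice a piece of the sciatic nerve had been cut out on one side, and in the 4 Sham mice the nerve was located and left intact. All were male C57BL/6J mice of 2 to 6 months, operated under anesthesia with the analgesic Meloxicam in both groups, and cells were taken from hind limb muscles 21 days after surgery. Whether both hind limbs were pooled is not given in the sources used here. The study left out DEN replicate 1 after inspection of its sample plot, so DEN replicates 2 to 4 were compared with Sham replicates 1 to 4, and DEN replicate 1 is given apart.

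Receptor tyrosine kinases switch on Ras, which drives the kinases Raf, Mek and Erk. Sprouty proteins are induced by this signal and damp it at the level of receptors, adaptors and Raf. Spred proteins bring the Ras GTPase activating protein neurofibromin to the membrane and so favor inactive Ras. Etv1, Etv4 and Etv5 are closely related ETS transcription factors, switched on downstream of FGF receptors and Erk, repressed by Capicua (Cic) and degraded through the ubiquitin ligase Cop1. In adult muscle, Spry1 is known as a gene of quiescent MuSCs that is needed for cycling cells to return to quiescence.

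None of the 9 members passed the edgeR test between DEN and Sham MuSCs. Spry1 passed by DESeq2, the tool that the study used on these 7 libraries. By edgeR's quasi-likelihood test with Benjamini-Hochberg adjustment over all genes, 0 of 9 were called at an adjusted p under 0.05, where 10.6% of all genes tested were called, 5.29% as higher and 5.32% as lower. At an unadjusted p under 0.05 there were 3 of 9 (Spry1, Spry4 and Spred2), against 25.4% of all genes. The DEN and Sham values of 2 of 9 did not overlap (Spry1 above, Spred2 below), against 23.4% of all genes. DESeq2 called 1 of 9 (Spry1), against 13.2% of the genes it gave an adjusted p, and edgeR with all 8 libraries also called 1 of 9 (Spry1), against 11.5%. Each of these counts lay within 1 gene of the number that the share of all genes gives for 9. Without DEN replicate 2 the genes called fell to 1098, and without DEN replicate 3 to 1231, against 1853 with all 7 libraries, and the members called were 0 in each of these fits. Of the 9 fold changes, 6 were positive and 3 negative, with a median log2 fold change of 0.21, against -0.00 for all genes tested, of which 49.9% were positive. The median size of change, with the sign left out, was 0.23 on the log2 scale for the members and 0.19 for all genes tested.

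**Figure D1:**
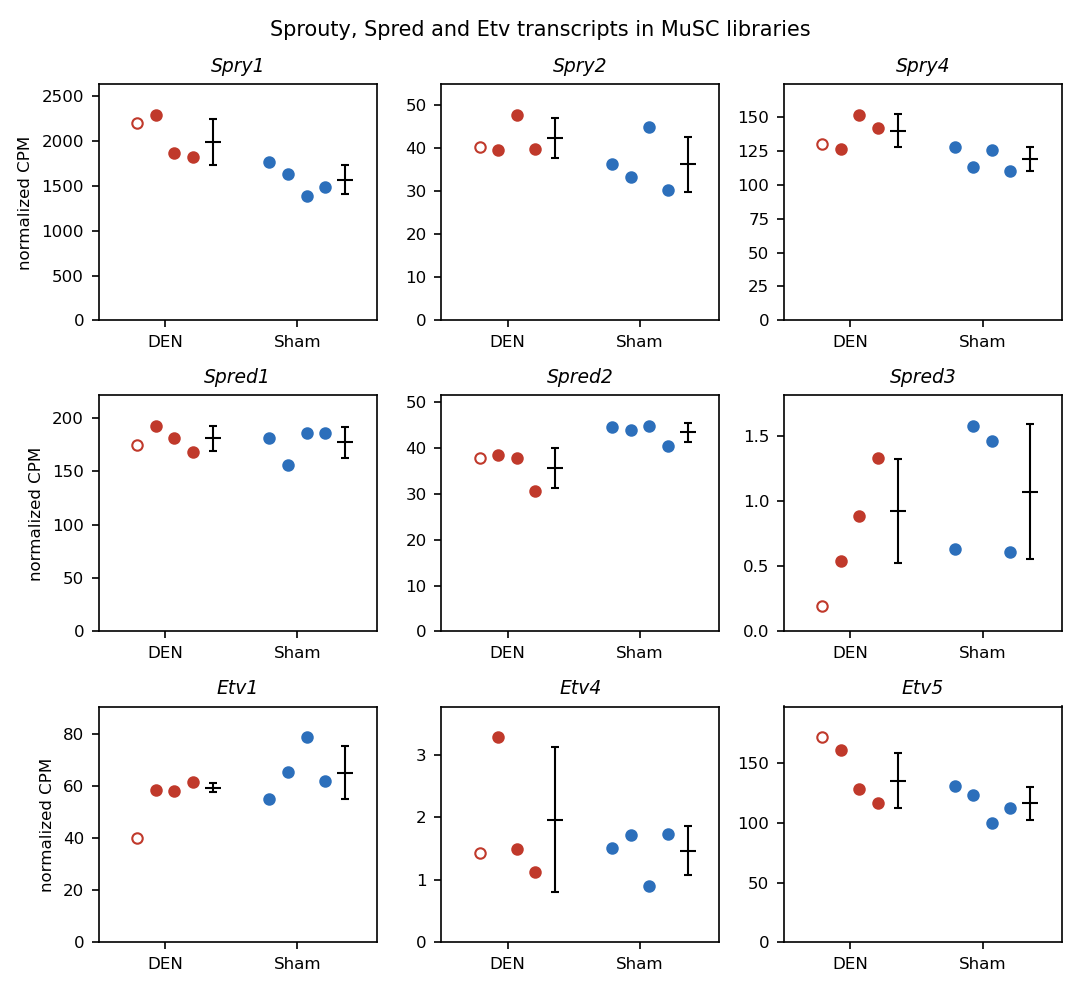
Normalized counts (CPM, scaled to library totals with TMM factors, linear axis from 0) of each member in each MuSC library, DEN left and Sham right. Points are libraries, the open point is DEN replicate 1, and bars give the mean and SD of DEN replicates 2 to 4 (n = 3) and of Sham (n = 4). The groups are apart for Spry1 (DEN above) and Spred2 (DEN below) and overlap for the other 7 genes.

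The members differed far more from each other than between surgeries. Levels between genes are compared as RPKM, the read count scaled to the library's total and divided by the length of the merged exons. Spry1 was the highest, with a mean of 602 RPKM over the 7 libraries (range 474 to 786), rank 53 of the 28772 genes with a count. Its RPKM was 19.9 times that of the next member, and it made up 83.6% to 86.1% of the members' summed RPKM in DEN and 80.5% to 83.9% in Sham. Of all counts in a library, Spry1 alone took 0.182% to 0.228% in DEN, 0.138% to 0.178% in Sham and 0.214% in DEN replicate 1.

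After Spry1 came Etv5 with a mean RPKM of 30.3 (24.0 to 39.1), Spry4 with 26.9 (23.1 to 31.7) and Spred1 with 26.4 (23.1 to 28.3). The ranges of these neighbors overlapped, Etv5 being above Spry4 in 4 of 7 libraries and Spry4 above Spred1 in 4 of 7. Spry2 followed at 18.6 RPKM (14.4 to 22.7), Spred2 at 8.68 (6.63 to 9.68) and Etv1 at 4.71 (4.14 to 5.86). Etv4, at 0.541 RPKM (0.288 to 1.06), and Spred3, at 0.162 RPKM (0.0869 to 0.254), were at the low end. From Spred1 downward each gene was above the next in 7 of 7 libraries. Each family thus had members at very different levels, with Spry1 far above Spry2 and Spry4, Spred3 far below Spred1, and Etv4 far below Etv5. The order of Spred2 and Etv1 depends on the length used, which was 4.619 kb for Spred2 and 13.296 kb for Etv1. In CPM, Etv1 (54.9 to 78.7) was above Spred2 (30.7 to 44.8) in 7 of 7 libraries. Which transcripts of these genes were present was not examined.

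**Figure D2:**
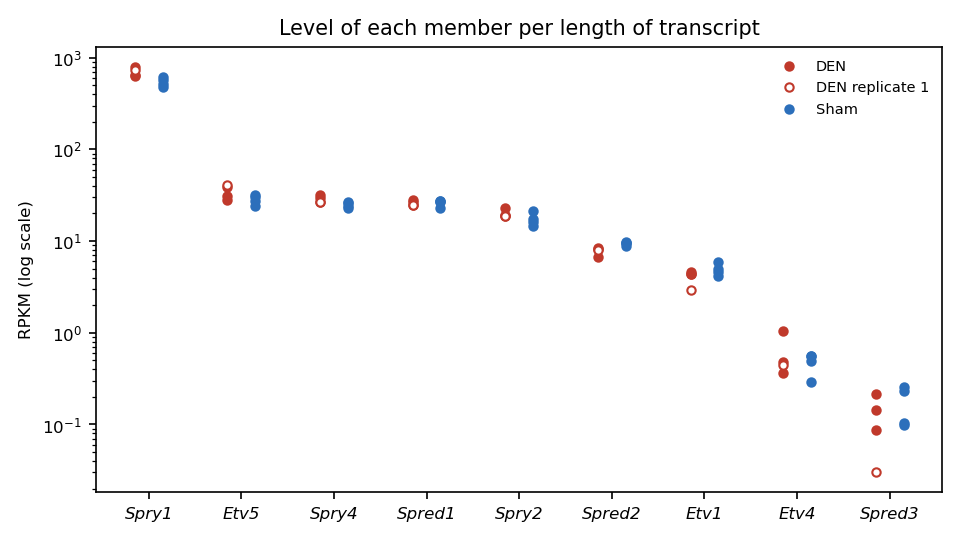
RPKM of each member (log axis) in order of the mean over 7 libraries, with DEN left and Sham right for each gene; each point is a library and the open point is DEN replicate 1. Spry1 lies between 474 and 786 RPKM and Spred3 between 0.0869 and 0.254 RPKM in the 7 libraries compared.

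The start regions of 3 members are shown here, Spry1 and Spred2 because their groups were apart, and Spry2 because its region holds a Capicua octamer. Sequences are those of RefSeq on GRCm38.p6, on the strand of the gene, 5′ to 3′, from 250 bases before to 50 bases after the annotated start. The Spry1 window is chr3:37639697-37639996 (plus strand), the Spred2 window chr11:19924192-19924491 (plus strand) and the Spry2 window chr14:105896770-105897069 (minus strand). Capitals mark a motif match, and windows with no match are in lower case throughout.
Spry1 start region: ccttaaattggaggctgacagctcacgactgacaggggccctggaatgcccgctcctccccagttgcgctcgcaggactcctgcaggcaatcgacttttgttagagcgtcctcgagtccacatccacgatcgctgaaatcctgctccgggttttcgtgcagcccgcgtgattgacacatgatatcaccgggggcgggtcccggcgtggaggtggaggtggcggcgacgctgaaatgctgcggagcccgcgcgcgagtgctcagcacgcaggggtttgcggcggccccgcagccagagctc
Spred2 start region: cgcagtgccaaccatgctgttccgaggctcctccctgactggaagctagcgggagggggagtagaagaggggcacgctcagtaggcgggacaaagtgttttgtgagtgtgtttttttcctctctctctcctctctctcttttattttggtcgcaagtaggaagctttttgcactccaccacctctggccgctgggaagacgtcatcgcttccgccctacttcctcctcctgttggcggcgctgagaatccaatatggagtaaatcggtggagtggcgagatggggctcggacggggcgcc
Spry2 start region: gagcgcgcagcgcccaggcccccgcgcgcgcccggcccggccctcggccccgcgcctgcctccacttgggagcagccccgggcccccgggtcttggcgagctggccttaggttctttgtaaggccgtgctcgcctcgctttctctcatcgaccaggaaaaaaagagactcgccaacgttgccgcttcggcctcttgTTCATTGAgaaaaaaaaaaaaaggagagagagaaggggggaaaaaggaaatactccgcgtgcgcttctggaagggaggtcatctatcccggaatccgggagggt

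The windows were searched on both strands for the AP-1 motif TGANTCA, the cAMP response element TGACGTCA, the ETS motif CCGGAAGT and the Capicua octamers TGAATGAA and (as its other common form) TCAATGAA. Windows of 7 members were searched, 9 windows in all, since Etv1 and Etv5 have a pair each. Spry4 and Etv4 were not searched. Spry2 holds the reverse complement of the second octamer 54 bases before its start, and Spred3 holds the first octamer 10 bases before its start, in a window that is not shown. No other match to these letters was found in the 9 windows. Of all 32817 RefSeq windows, 7.81% hold the AP-1 motif, 1.79% the cAMP response element, 3.89% the ETS motif, 1.3% the first octamer and 0.75% the second. The GC content was 64.3% for Spry1, 62.7% for Spry2 and 57.0% for Spred2, against a median of 52.7% over all windows. A match is a stretch of letters only, and no binding was measured here.

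Among the Sprouty genes, Spry1 had 2287, 1863 and 1825 CPM in DEN replicates 2 to 4, against 1771, 1630, 1392 and 1488 CPM in Sham replicates 1 to 4. DEN replicate 1, at 2203 CPM, was also above every Sham library. In the edgeR fit Spry1 had a log2 fold change of 0.34 (SE 0.11, 95% interval 0.10 to 0.58), with an unadjusted p of 0.0098 and an adjusted p of 0.0728. The smallest gap between the groups was that of DEN replicate 4 and Sham replicate 1. Without Sham replicate 1 the log2 fold change was 0.40 and the adjusted p 0.0414, and over all fits that left out 1 library the adjusted p was between 0.0414 and 0.269. With all 8 libraries the adjusted p was 0.0404, and by DESeq2 on 7 libraries it was 0.0215.

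Spry1 shares 710 bases, 24.4% of its exon bases, with the antisense gene model Gm42922, and the counts are without strand. Gm42922 had 5 to 16 counts per library, against 40010 to 67641 for Spry1. How reads in the shared bases were assigned was not examined, so these counts do not show what the overlap did to Spry1. In GENCODE M21 on GRCm38, Spry1 lies on chromosome 3 from 37639947 to 37644598 on the plus strand, with 3 transcripts and 2 merged exons.

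Spry2, an inhibitor of Erk signaling that also binds the ubiquitin ligase Cbl, had 39.5, 47.5 and 39.8 CPM in DEN replicates 2 to 4, against 36.3, 33.3, 44.8 and 30.2 CPM in Sham. All DEN values were above 3 of the 4 Sham values, and Sham replicate 3 lay inside the DEN range, as did DEN replicate 1 at 40.3 CPM. Its log2 fold change was 0.23 (SE 0.13, edgeR adjusted p = 0.336). Spry2 lies on chromosome 14 from 105891947 to 105896819 on the minus strand.

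Spry4, which binds Raf and the kinase Tesk1, had 127, 151 and 142 CPM in DEN replicates 2 to 4, against 128, 113, 126 and 110 CPM in Sham. The groups overlapped only at DEN replicate 2 and Sham replicate 1, and DEN replicate 1 was at 130 CPM, above every Sham library. The log2 fold change was 0.23 (SE 0.086), with an unadjusted p of 0.0225 and an edgeR adjusted p of 0.121. Its RPKM was 29.4 ± 2.58 in DEN (SD, n = 3) and 25.0 ± 1.82 in Sham (SD, n = 4).

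All 3 Sprouty genes thus had a positive log2 fold change, and none passed the adjusted edgeR test. The summed RPKM of the Sprouty genes was 734 ± 85.0 in DEN (SD, n = 3), 781 in DEN replicate 1 and 583 ± 59.8 in Sham (SD, n = 4), and most of it is Spry1.

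Among the Spred genes, Spred1 had 192, 182 and 169 CPM in DEN replicates 2 to 4, against 182, 156, 186 and 186 CPM in Sham, with 175 CPM in DEN replicate 1. The groups overlapped over most of their range. Spred1 had a log2 fold change of 0.03 (SE 0.084, 95% interval -0.16 to 0.21, edgeR adjusted p = 0.888), the smallest of the 9, with an interval of 0.896-fold to 1.16-fold. Its sign was negative without DEN replicate 2 and without Sham replicate 2.

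Spred2 had 38.4, 37.9 and 30.7 CPM in DEN replicates 2 to 4, against 44.5, 43.9, 44.8 and 40.5 CPM in Sham. Every DEN library was below every Sham library, DEN replicate 1 at 37.8 CPM among them. Spred2 had a log2 fold change of -0.28 (SE 0.099, 95% interval -0.50 to -0.06), with an unadjusted p of 0.0168 and an edgeR adjusted p of 0.101. Over the 16 alternative fits its log2 fold change was between -0.34 and -0.18 and its adjusted p between 0.0829 and 0.280. Spred2 lies on chromosome 11 from 19924375 to 20024026 on the plus strand, with 8 merged exons.

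Spred3, in which the Kit binding domain of the other Spred proteins is not functional, was near the limit of detection. It had 16, 28 and 38 counts in DEN replicates 2 to 4, against 21, 54, 42 and 18 counts in Sham, and 5 counts in DEN replicate 1. The corresponding levels were 0.541, 0.888 and 1.33 CPM in DEN and 0.635, 1.57, 1.46 and 0.611 CPM in Sham. The log2 fold change of -0.22 had an SE of 0.46 (95% interval 0.421-fold to 1.76-fold, edgeR adjusted p = 0.832), so neither a lower nor a higher level within that interval was distinguished here. Of its exon bases, 202 (3.2%) are shared with the gene Ggn, which had 22 to 50 counts per library.

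The Spred genes thus held 1 member below Sham in every DEN library and 2 whose groups overlapped. Their summed RPKM was 34.5 ± 2.58 in DEN (SD, n = 3), 33.0 in DEN replicate 1 and 35.7 ± 1.88 in Sham (SD, n = 4).

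Among the Etv genes, Etv1 had 58.6, 58.1 and 61.5 CPM in DEN replicates 2 to 4, against 54.9, 65.4, 78.7 and 61.8 CPM in Sham. All DEN values lay inside the Sham range, whereas DEN replicate 1, at 40.1 CPM, was below every other library. The log2 fold change was -0.13 (SE 0.11, edgeR adjusted p = 0.523), and it was negative under all 16 alternatives, between -0.27 and -0.03. Etv1 lies on chromosome 12 from 38779380 to 38870484 on the plus strand, with 13 transcripts and 17 merged exons.

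Etv4 had 97, 47 and 32 counts in DEN replicates 2 to 4, against 50, 59, 26 and 51 counts in Sham, and 37 counts in DEN replicate 1. The levels were 3.28, 1.49 and 1.12 CPM in DEN and 1.51, 1.72, 0.905 and 1.73 CPM in Sham. DEN replicate 2 alone was above the Sham range. The log2 fold change of 0.42 (SE 0.39, 95% interval 0.734-fold to 2.43-fold, edgeR adjusted p = 0.571) was -0.16 without DEN replicate 2, so 1 library sets its sign.

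Etv5 had 161, 129 and 116 CPM in DEN replicates 2 to 4, against 131, 123, 99.4 and 112 CPM in Sham, and 171 CPM in DEN replicate 1. The 2 highest libraries were DEN replicates 1 and 2, and the others of both groups lay among each other. The log2 fold change was 0.21 (SE 0.12, edgeR adjusted p = 0.314), positive under all 16 alternatives. Etv5 lies on chromosome 16 from 22381309 to 22439719 on the minus strand, with 5 transcripts. The Etv genes summed to 38.0 ± 5.86 RPKM in DEN (SD, n = 3), 44.0 RPKM in DEN replicate 1 and 33.8 ± 3.01 RPKM in Sham (SD, n = 4).

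The precision differed by level. For the 7 members other than Etv4 and Spred3, the 95% intervals lay between 0.705-fold and 1.499-fold. The intervals of Spry1, Spry4 and Spred2 left out 0, and those of the other 6 did not.

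**Figure D3:**
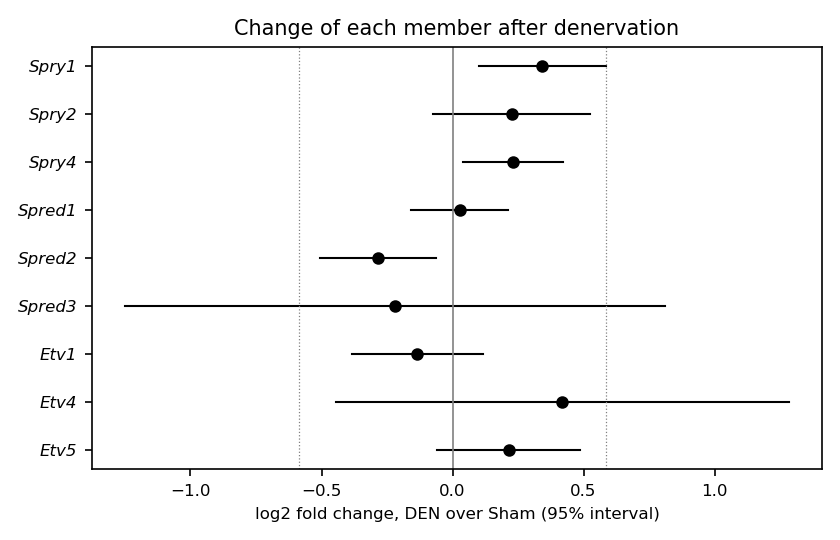
Log2 fold change of each member, DEN over Sham (points), with its 95% interval (lines) from edgeR's quasi-likelihood fit of 3 DEN and 4 Sham libraries; dotted lines mark a 1.5-fold change either way. Etv4 and Spred3, the lowest in level, have the widest intervals, and no member passed the test at an adjusted p under 0.05.

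The genes around the members were followed in 8 lists, of which 111 genes were tested and 19 were called (10 without DEN replicate 2, 12 without Sham replicate 2). Among 20 growth factor receptors tested, 3 were higher and 2 lower in DEN (median log2 fold change 0.12). Ret, the receptor of the GDNF family, had 25.4 ± 4.60 CPM in DEN and 109 ± 30.3 CPM in Sham (SD, n = 3 and 4), a log2 fold change of -2.10 (edgeR adjusted p = 0.000219). Fgfr2, a receptor of FGFs, was also lower (log2 fold change -1.43, adjusted p = 0.0112), whereas Erbb3, a neuregulin receptor, was higher (0.96, adjusted p = 0.0082). The collagen receptor Ddr1 was higher (0.38, adjusted p = 0.0170), a call lost without DEN replicate 2 (adjusted p = 0.0702), DEN replicate 4 (0.0609) or Sham replicate 2 (0.0512).

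Of 13 adaptors and Ras exchange factors tested, 2 were higher and 1 lower (median -0.02). The docking protein Gab2 was higher in DEN (31.2 ± 1.86 CPM, against 18.4 ± 3.63 CPM in Sham; log2 fold change 0.76, edgeR adjusted p = 0.0087). The phosphatase Ptpn11 (Shp2), which promotes Ras signaling, was lower (-0.34, adjusted p = 0.0184), and the call was lost without DEN replicate 2 (0.0830), DEN replicate 4 (0.0514) or Sham replicate 2 (0.0535). The adaptor Shc1 was higher (0.26, adjusted p = 0.0483), but stayed called only without DEN replicate 4 among the 7 fits with 1 library left out, the others giving an adjusted p of 0.0666 to 0.157.

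Of 21 Ras, Raf, Mek and Erk proteins and scaffolds tested, 3 were higher and 1 lower (median 0.06). The scaffold Ksr1 was lower in DEN (8.24 ± 0.947 CPM, against 16.6 ± 2.64 CPM in Sham; log2 fold change -1.01, edgeR adjusted p = 0.0030), and Mapk3, which encodes Erk1, was higher (0.42, adjusted p = 0.00999). The scaffold Iqgap1 was higher (0.33, adjusted p = 0.0123; 0.0589 without DEN replicate 2). Hras was higher (0.27, adjusted p = 0.0474), a call kept only without DEN replicate 4, the other 6 fits with 1 library left out giving 0.0710 to 0.168.

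None of 8 Ras GTPase activating proteins tested was called (median -0.09), the highest being Rasa3 at 258 ± 17.3 CPM in DEN and 218 ± 26.0 CPM in Sham and Lztr1, an adaptor for Ras degradation grouped with them, at 119 ± 4.22 CPM in DEN and 108 ± 8.30 CPM in Sham. Of 15 binding partners of Sprouty and Spred proteins, 0 were higher and 1 was lower, Ptpn11, which also stands in the adaptor list (median -0.02). Of 11 regulators of the Etv factors, none was called (median 0.02), and the highest were Ddb1, a subunit of the Cop1 ligase complex, at 473 ± 42.6 CPM in DEN and 394 ± 22.1 CPM in Sham, and Trib2 at 146 ± 15.3 CPM in DEN and 134 ± 20.3 CPM in Sham. Of 13 other ETS factors, 1 was higher (median 0.12). This was Ets1 (log2 fold change 0.34, edgeR adjusted p = 0.0483), which stayed called only without Sham replicate 3, the other 6 fits with 1 library left out giving 0.0563 to 0.147.

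Among 15 other Erk feedback and output genes tested, 4 were higher and 2 lower (median 0.25). Ier3, an immediate early gene that acts on Erk dephosphorylation, had 15.5 ± 2.99 CPM in DEN and 4.31 ± 0.864 CPM in Sham (log2 fold change 1.84, edgeR adjusted p = 0.000301). Dusp5, a nuclear phosphatase of Erk, had 6.89 ± 1.55 CPM in DEN and 1.54 ± 0.350 CPM in Sham (2.16, adjusted p = 0.000442). The cytokine Lif was higher (1.42, adjusted p = 0.0112; 0.0512 without DEN replicate 3), as was Il17rd (Sef), a membrane inhibitor of FGF signaling (0.55, adjusted p = 0.0154; 0.0655 without DEN replicate 2). The 2 genes called lower were Ccnd1 and Errfi1, named here after their values were seen. Over the 16 alternative fits the log2 fold change was -0.97 to -0.64 for Ccnd1 and -0.38 to -0.26 for Errfi1. Of the 7 fits with 1 library left out, 2 called Ccnd1 and 1 called Errfi1. Dusp6, a cytoplasmic phosphatase of Erk chosen after its value was seen, had a log2 fold change of 0.32 and an adjusted p of 0.118.

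**Figure D4:**
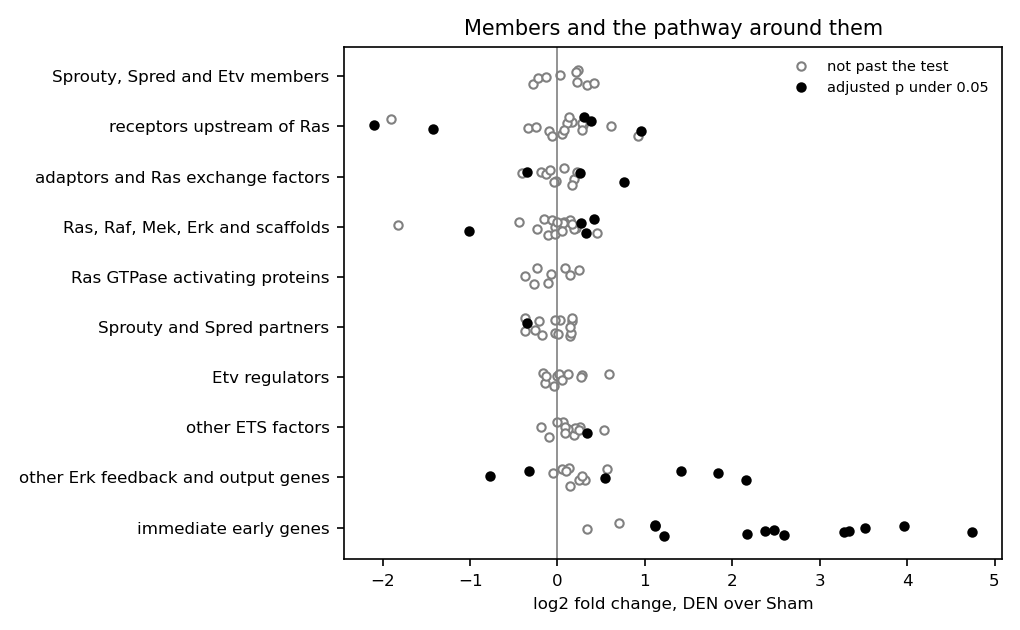
Log2 fold change, DEN over Sham, of each tested gene (points) of the 9 members, the 8 pathway lists and the immediate early genes; filled points have an adjusted p under 0.05 by edgeR, and the height within a row has no meaning. None of the 9 members is filled, where 10.6% of all genes tested passed this test; of the immediate early genes 12 of 14 are filled.

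Cell type markers and library measures of both groups are given here, whether or not they differed, since they stand beside every member's values. Total counts were 28541080 to 31572843 in DEN replicates 2 to 4, 29048620 to 34145854 in Sham and 26627173 in DEN replicate 1. Genes with a count numbered 22699 to 23105 in DEN replicates 2 to 4, 23070 to 23596 in Sham and 21220 in DEN replicate 1. MuSC markers summed to 9801 to 10531 CPM in DEN and 9098 to 10282 CPM in Sham (2 of 12 higher). Smooth muscle and pericyte markers, led by Rgs5, summed to 9676 to 10478 CPM in DEN and 9688 to 12422 CPM in Sham (1 of 8 higher and 2 lower). Such sums are not scaled to length and their lists differ in size, so they compare the groups and not the cell types. Immediate early genes, led by Fos, summed to 7947 to 8567 CPM in DEN and 904 to 1696 CPM in Sham, with 12 of 14 higher. Myofiber markers, led by Acta1, summed to 1063 to 1140 CPM in DEN and 399 to 639 CPM in Sham (10 of 14 higher). Erythroid markers, led by Hba-a2, summed to 1957 to 2964 CPM in DEN and 5070 to 10199 CPM in Sham (5 of 7 lower). Fibro-adipogenic progenitor markers, led by Col3a1, summed to 2081 to 2326 CPM in DEN and 2836 to 3945 CPM in Sham (2 of 6 lower), and Schwann cell markers, led by Pmp22, to 715 to 982 CPM in DEN and 944 to 1285 CPM in Sham (2 of 8 higher and 3 lower). Endothelial markers, led by Tek, summed to 168 to 191 CPM in DEN and 189 to 237 CPM in Sham (0 of 7 called). Macrophage markers, led by Lyz2, summed to 2.86 to 107 CPM in DEN and 14.5 to 50.8 CPM in Sham (1 of 5 higher). Itgam was at 0 to 0.135 CPM in DEN and at 0 in every Sham library. Mitochondrially encoded genes took 2.35% to 2.84% of counts in DEN and 3.67% to 5.99% in Sham. The part of these measures in the members' values was not tested, and in bulk RNA fewer cells of a type and less RNA per cell cannot be told apart.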

How the data were processed

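Cells were sorted on α7-integrin, with those stained for CD45, CD31, CD11b, Sca-1 or the dead-cell dye Sytox left out, after digestion with collagenase B and dispase II in PBS and dilution of the suspension in growth medium with bFGF. From the sorted cells, full-length cDNA was sequenced from single ends. The deposited counts were made by the authors with bcl2fastq 2.20.0.422, cutadapt 2.1, TopHat2 2.1.0 and featureCounts 1.6.5 (versions from the submitters' processing notes) on GRCm38, without strand. The deposited RPM values are the authors' counts scaled to a common library total. For RPKM the authors further divided by a length in kilobases, which equals the merged exons of GENCODE M21 for all 9 members. Every column was mapped to a sample (0 were not).

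Counts were filtered with filterByExpr (minimum count 10, minimum total count 15), scaled by TMM and compared by the quasi-likelihood test of edgeR 4.0.16 in R 4.3.3 with robust dispersion (biological coefficient of variation 0.161). Benjamini-Hochberg adjustment ran over 17454 genes, with calls at an adjusted p below 0.05. Replicates are separate mice. The fitting functions were run on simulated counts with known changes, all larger than those of the members, and the same dispersion for every gene. That run does not show whether changes as small as the members' would be called. The alternatives were DESeq2 1.42.0, limma 3.58.1 on log2(RPM + 0.5) and log2(RPM + 0.1), RLE and total-count scaling, no filter, all 8 libraries, a replicate block with 7 or 8 libraries and each library left out in turn, 16 in all.

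The members and the gene lists (8 for the pathway, 9 for markers) were chosen with earlier results of these data known. The text names all members, from each pathway list up to 4 called genes with the smallest adjusted p or, where none was called, up to 2 with the highest CPM, and the highest gene of each marker list other than that of the MuSC markers, which is Chodl. Other genes were chosen after their values were seen. A comparison of the members' proteins was not run.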

Additional observations from a re-analysis of the deposited data

Results flagged for a closer look

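In 5 of 18 groups of 4 libraries (9 members, DEN with replicate 1 and Sham), the gap of the outermost library to its nearest neighbor as a share of the group's range exceeded Dixon's critical value at 95%, which chance exceeds in about 1 of 20 groups. Among DEN libraries, Spry2 was 47.5 CPM in replicate 3 and 39.5 to 40.3 CPM in the others (ratio 0.907). Spred2 was 30.7 CPM in DEN replicate 4 and 37.8 to 38.4 CPM in the others (ratio 0.916). Etv1 was 40.1 CPM in DEN replicate 1 and 58.1 to 61.5 CPM in the others (ratio 0.841). Etv4 was 3.28 CPM in DEN replicate 2 and 1.12 to 1.49 CPM in the others (ratio 0.8291, just past the critical value). Among Sham libraries, Spred1 was 156 CPM in replicate 2 and 182 to 186 CPM in the others (ratio 0.847). Each of the 4 DEN libraries is outermost for 1 gene. The 18 groups reuse the same 8 libraries and are not independent. The DEN groups also hold replicate 1, which the study had left out. Setting 5 of 18 against about 1 of 20 is therefore not a test.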

How the results depend on the processing

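The count of members called was 0 with RLE or total-count scaling, no filter and both limma fits, and 1 (Spry1) with DESeq2 and with all 8 libraries. With 1 library left out it was 0 to 1, the 1 being without Sham replicate 1, and the calls among all genes were 1098 to 1814, those higher 575 to 900, those lower 523 to 914 and those of the pathway lists 10 to 16. The lowest totals came without DEN replicate 2 (1098) and without DEN replicate 3 (1231). Deviations of same-numbered DEN and Sham mice from their group means had r of -0.057 to 0.0075 (replicates 2 to 4). Mice of unlike number had r of -0.037 to 0.042. So few pairs cannot settle whether the numbers pair the mice. With the replicate block the members called were 1 (Spry1, log2 fold change 0.40, adjusted p = 0.0338) and the pathway genes called 10, against 19 without the block. With the block and all 8 libraries these were 1 (Spry1, 0.37, adjusted p = 0.0277) and 9. No other member was called under any of the 16 alternatives. Among the pathway genes of the main fit, the block lost Erbb2, Shc1, Ptpn11, Hras, Iqgap1, Il17rd, Lif, Errfi1 and Ets1. The block with all 8 libraries also lost Erbb3 (edgeR adjusted p = 0.113), Mapk3 (0.0566), Ddr1 (0.0677) and Ccnd1 (0.137), and kept Iqgap1 (0.0439). Signs turned for 3 members that no fit called. These were Spred1 (-0.017 without DEN replicate 2, -0.032 without Sham replicate 2, range with 1 library left out -0.032 to 0.077), Spred3 (0.052 without DEN replicate 2, 0.030 without Sham replicate 2, range -0.58 to 0.052) and Etv4 (-0.16 without DEN replicate 2, range -0.16 to 0.70), and the cause was not tested. Spred3 and Etv4 had the lowest counts and the widest intervals.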

Other observations

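Some values were looked at after the members' levels were known and are given as descriptions. The RPKM of Spry1 divided by that of Spred2, whose groups were apart in opposite directions, was 94.6, 78.1 and 94.6 in DEN replicates 2 to 4 and 92.7 in DEN replicate 1, against 63.2, 59.0, 49.4 and 58.4 in Sham. With both genes apart in opposite directions, the groups had to be apart in this ratio too. The RPKM of Spry1 divided by that of Etv5 was 20.1, 20.5 and 22.2 in DEN replicates 2 to 4 and 18.1 in DEN replicate 1, against 19.1, 18.6, 19.8 and 18.7 in Sham. In this ratio DEN replicates 2 to 4 were above every Sham library, and DEN replicate 1 was below every Sham library. The gene outside the members whose profile over the 7 libraries was nearest to that of Spry1, among 10472 candidates, was Cd9, which encodes a tetraspanin, with a root mean square difference of 0.0542 on the log2 scale, a log2 fold change of 0.35 and an edgeR adjusted p of 0.0350. The next nearest was Gm16385 (difference 0.0573, log2 fold change 0.27, edgeR adjusted p = 0.219). A fold change like that of Spry1 follows from choosing genes by likeness.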
